A study of Mus musculus with 8 samples.

Results

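The proteins of the cytosolic ribosome are encoded by the Rpl (large subunit) and Rps (small subunit) genes. Members were chosen by symbol, as every Rpl or Rps symbol followed by a digit together with Rpsa, Rplp0, Rplp1 and Rplp2, leaving out the Rps6k kinases and every symbol with the pseudogene suffix -ps. This gave 90 of the 16486 genes in the deposited table, and the 70 ribosomal protein symbols with the -ps suffix were kept apart as a check on read assignment. GENCODE M21 lists 84 of the 90 as protein coding and 6 as pseudogenes in spite of their names (Rpl37rt, Rpl6l, Rps12l1, Rps3a2, Rps3a3 and Rps4l). Rps19bp1 also matched the symbol rule, although it encodes a protein that binds RPS19 and is no part of the ribosome.

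Bulk RNA-Seq was measured in blood monocytes (MCs) sorted as CD11b+Ly6G-Ly6Chigh or CD11b+Ly6G-Ly6Clow cells from male mice on chow, whose blood was collected at 20 to 22 weeks of age. Untreated wild-type C57/BL6 animals served as controls (CT). For T1DM, the same strain received intraperitoneal streptozotocin (STZ), which destroys insulin-producing beta cells, at 50 mg/kg on each of 5 days at 8 weeks of age, and for T2DM db/db animals, homozygous for a mutated leptin receptor, were used. Analysed here were 2 libraries of each subset for CT and 1 of each for T1DM and T2DM MCs, 8 in all, each made from RNA pooled from 5 mice. The pools were the samples that were sequenced, so p-values measure the spread between these libraries and not between mice. The study describes pooled RNA that was sequenced in duplicate, so the 2 CT libraries of a subset may be duplicates of 1 pool. Their spread would then be that of the measurement only. Per the labels, the CT libraries and the diabetic libraries were read on different instruments, and the effects of instrument and of diabetes cannot be told apart. Ly6c2, which encodes the sorted antigen, was at 8.56 to 8.72 in the Ly6Chigh and at 2.69 to 4.07 in the Ly6Clow libraries. Values are log2 expression as deposited. It was not established whether they are per transcript length, so the levels of single genes are compared between libraries and not with other genes. The shares, marker sums and sums with copies below add linear values of different genes and are subject to this limit.

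The ribosome joins a small subunit, which reads the mRNA, to a large subunit, which forms the peptide bonds. Its proteins are made in matching amounts, and most of their mRNAs begin with a pyrimidine-rich stretch, the 5-prime terminal oligopyrimidine (TOP) motif, through which the mTOR pathway controls their translation. Ribosomal protein mRNAs are short and abundant, and the genome holds many reverse-transcribed copies of them, most of which are annotated as pseudogenes.

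These copies matter for the measurement, because Kallisto assigns a read by short sequences that a copy can share with its parent gene. Of the 31-base sequences in the principal transcript of a member, a median of 63.4% also occurred in another gene, and in 52 of the 90 members at least 50% occurred in another gene of the table. The pseudogenes shared a median of 80.8%. Coding sequence is printed below for 3 members on which results turn, Rps18, Rpl3 and Rpsa, beside the copies that changed most with them. Lower case marks bases that all copies shown share, and capitals mark the positions at which any copy differs. The first set covers coding bases 127 to 186 of Rps18 (GRCm38, chr17:33951999-33956001, minus strand) and of its copies Gm10260 (chr13:97760072-97760632, minus strand), Gm11361 (chr13:28257528-28258134, plus strand) and Rps18-ps3 (chr8:107262793-107263248, minus strand).
Rps18: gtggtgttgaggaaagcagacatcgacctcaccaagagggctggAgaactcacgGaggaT
Gm10260: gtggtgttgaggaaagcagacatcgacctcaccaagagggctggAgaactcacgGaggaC
Gm11361: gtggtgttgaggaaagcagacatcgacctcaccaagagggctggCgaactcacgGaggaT
Rps18-ps3: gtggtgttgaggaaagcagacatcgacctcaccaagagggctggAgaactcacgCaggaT

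The second set covers coding bases 1 to 60 of Rpl3 (chr15:80077791-80091868, minus strand) and of the processed pseudogene Rpl3-ps1 (chrX:13202571-13203780, plus strand).
Rpl3: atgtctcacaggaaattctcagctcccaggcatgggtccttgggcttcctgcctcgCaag
Rpl3-ps1: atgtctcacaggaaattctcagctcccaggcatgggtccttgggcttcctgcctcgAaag

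The third set covers coding bases 160 to 219 of Rpsa (chr9:120127689-120132369, plus strand) and of the processed pseudogene Rpsa-ps10 (chr3:150072658-150073542, minus strand).
Rpsa: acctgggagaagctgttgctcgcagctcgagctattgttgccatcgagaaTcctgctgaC
Rpsa-ps10: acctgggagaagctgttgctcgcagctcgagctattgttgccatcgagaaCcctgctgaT

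Over the whole coding sequence, Rpl3-ps1 differed from Rpl3 at 2 of 1209 bases and Rpsa-ps10 from Rpsa at 6 of 885. Gm10260, Gm11361 and Rps18-ps3 differed from the 456 coding bases of Rps18 at 4, 3 and 3 positions, which is an identity of 99.12%, 99.34% and 99.34%. Rps16-ps2 did not differ from the 438 coding bases of Rps16.

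The median of the 90 members was 8.15 and 8.11 in the CT Ly6Chigh libraries, 8.18 and 8.19 in CT Ly6Clow, 8.41 and 7.92 in T1DM Ly6Chigh and Ly6Clow, and 8.35 and 7.99 in T2DM Ly6Chigh and Ly6Clow. A mean log2 value of at least 5 was reached by 79 members, and 85 passed a low-value filter at a mean of 1. CT replicates were close, with a median absolute log2 difference per member of 0.04 in Ly6Chigh and 0.05 in Ly6Clow MCs, against 0.26 and 0.25 over all genes.

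As a share of the summed linear values, the 90 genes held 2.66% and 2.64% in the CT Ly6Chigh libraries and 3.47% and 3.47% in the CT Ly6Clow libraries. In T1DM MCs the share was 3.05% in Ly6Chigh and 2.78% in Ly6Clow, and in T2DM MCs it was 2.97% and 3.00%. The CT subsets were thus the farthest apart, and each diabetic library lay between them. The -ps pseudogenes held 0.11% to 0.21%. Both shares rest on the total of each library, which was lower in the 4 Ly6Clow libraries (838696 to 878313) than in the 4 Ly6Chigh libraries (1020068 to 1090019).

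**Figure D1:**
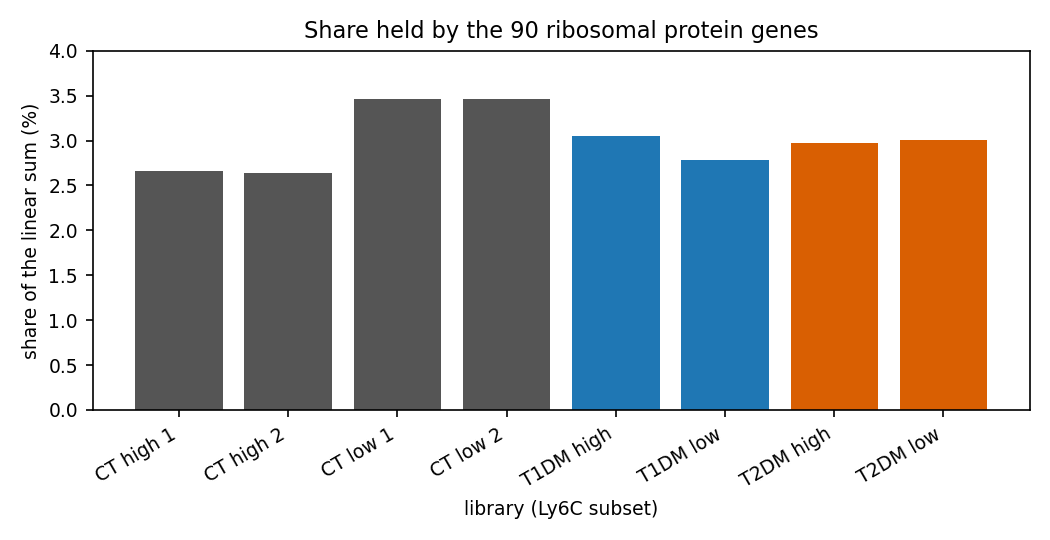
Bars give the percentage of each library's summed linear values held by the 90 ribosomal protein genes, with CT in grey, T1DM in blue and T2DM in orange. The CT Ly6Clow bars stand at 3.47% and the CT Ly6Chigh bars at 2.66% and 2.64%, with the 4 diabetic libraries between them.

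The first comparison asked how the subsets differ in CT mice. More members were lower than higher in CT Ly6Chigh MCs, although by little. In the small subunit, Rps27 fell by 0.64, Rps12 by 0.60, Rps2 by 0.47 and Rps3 by 0.43 on the log2 scale. In the large subunit, Rpl12, which sits at the base of the P-stalk, fell by 0.76 and Rpl36a by 0.54. Over the 31 small and 48 large subunit genes compared further below, the median differences in CT MCs were -0.18 and -0.10. Rpl36al (0.91), Rps27a (0.73), Rpl37 (0.50), Rpl28 (0.44) and Rps9 (0.44) rose. The P-stalk, which recruits elongation factors to the ribosome, was split, as Rplp0 rose by 0.39 (adjusted p = 0.00836) and Rplp2 fell by 0.37 (adjusted p = 0.0177), while Rplp1 differed by -0.24 without passing.

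By the criteria of an adjusted p under 0.01 and an absolute log2 fold change (log2FC) above 1, 0 of 90 members were called in CT MCs, against 2.1% of all genes higher and 1.43% lower. At an adjusted p under 0.05 without a fold limit, 10 members were higher and 26 lower, where 11.4% and 9.06% of all genes passed. At an unadjusted p under 0.05 there were 18 higher and 38 lower (18.9% and 18.8% of all genes). The median difference of the members was -0.13, with 26 above and 63 below 0, and the median of all genes was -0.09. Among genes of a mean of at least 5, the level that most members reach, the median was 0.22.

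The members that differed were separated in the single libraries. Rpl12 stood at 6.88 and 6.80 in CT Ly6Chigh and at 7.58 and 7.61 in CT Ly6Clow MCs (log2FC -0.76 ± 0.06 SE, adjusted p = 0.01). Rpl36al stood at 7.89 and 7.82 against 6.98 and 6.91 (log2FC 0.91 ± 0.06 SE, adjusted p = 0.00768). Rps27 stood at 8.82 and 8.77 against 9.47 and 9.41 (log2FC -0.64 ± 0.04 SE, adjusted p = 0.00751). In each of them the CT libraries of the subsets did not overlap. Over all members, both CT Ly6Chigh libraries lay below both CT Ly6Clow libraries in 51 of 90 and above them in 23, where 34.6% and 30.3% of all genes did so.

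How the libraries are scaled decided the direction. With the linear sums of the libraries made equal, 2 members were higher and 56 lower at an adjusted p under 0.05 (median -0.42), whereas with the library medians made equal 19 were higher and 15 lower (median -0.01). Apart from scaling, each member was summed with its copies, an alternative added after the values were seen and defined below. Then 9 were higher and 32 lower. Rpl12 had a log2FC of -0.46, Rpl28 of 0.29 without passing, and Rpl10a of -0.59 in place of 0.07. Rps27 (-0.63) and Rpl36al (0.86) changed little. Without any one of the 4 CT libraries 0 members passed at 0.05. Markers of B cells moved with the subset, as 18 of 18 were lower in CT Ly6Chigh MCs at an adjusted p under 0.05, with a summed linear level of 558 to 565 in CT Ly6Chigh and 6848 to 6876 in CT Ly6Clow libraries. The 10 NK cell markers, all lower as well, summed to 88.2 to 90.1 and 684 to 694, and the part of these cells in the differences of the members was not tested. In bulk samples, fewer cells of a type and less RNA per cell cannot be told apart.

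Over all 8 libraries, with mouse group as a covariate, the subset difference had mainly rises. Rps27l, a paralogue of Rps27 and known p53 target, was the only member called by the fold criteria, where 5.37% of all genes were called higher and 6.76% lower. Ly6Chigh MCs had values of 4.34 and 5.02 (CT), 4.75 (T1DM) and 4.73 (T2DM), and Ly6Clow MCs of the same mice 3.46 and 3.38, 3.43 and 3.40 (log2FC 1.29 ± 0.19 SE, adjusted p = 0.000907). All 4 Ly6Chigh libraries were above all 4 Ly6Clow libraries. Its paralogue Rps27 went the other way in CT MCs and had a log2FC of -0.31 over the 8 libraries that did not pass, but 98.7% of the 31-base sequences of Rps27 also occur in Rps27rt.

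At an adjusted p under 0.05, 20 members were higher and 2 lower in Ly6Chigh MCs (17.0% and 16.0% of all genes). Rpl36al, which encodes the same kind of large subunit protein as Rpl36a, stood at 7.84 in T1DM and 8.24 in T2DM Ly6Chigh MCs and at 6.89 and 7.07 in Ly6Clow (log2FC over 8 libraries 0.99 ± 0.09 SE, adjusted p = 4.99e-05). Rps27a, whose product is a fusion of ubiquitin with a small subunit protein, stood at 7.66, 7.64, 7.82 and 7.65 in Ly6Chigh and at 6.86, 7.00, 6.65 and 6.67 in Ly6Clow MCs, in the order CT, CT, T1DM and T2DM. Its log2FC was 0.90 ± 0.10 SE (adjusted p = 0.000237). Rps9 (0.66), Rpl37 (0.61), Rpl28 (0.56), Rpl35a (0.53) and Rpl7a (0.53) also rose. Rpl12 (-0.68 ± 0.10 SE, adjusted p = 0.000788) and Rps19 (-0.29 ± 0.09 SE, adjusted p = 0.039) fell. Rpl12 stood at 6.80 in both diabetic Ly6Chigh libraries and at 7.21 and 7.62 in T1DM and T2DM Ly6Clow MCs.

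The other paralogue pairs differed less. Rpl36a, the paralogue of Rpl36al, stood at 6.13 and 6.31 in CT Ly6Chigh and 6.73 and 6.79 in CT Ly6Clow MCs (log2FC in CT -0.54 ± 0.09 SE, adjusted p = 0.0372), so the members of this pair went in opposite directions in CT mice. Rpl7l1, whose product acts in ribosome assembly, rose by 0.48 over the 8 libraries (adjusted p = 0.0353), while Rpl7 had a log2FC of 0.28 that did not pass. Rpl22 (0.20) and Rpl22l1 (-0.04) did not pass either.

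In 19 members all 4 Ly6Chigh libraries lay above all 4 Ly6Clow libraries, and in 2, Rpl12 and Rpl6l, below them, where 16.4% and 16.3% of all genes did so. These 19 included Rplp0, at 9.65, 9.64, 9.75 and 9.59 in Ly6Chigh and 9.25, 9.27, 9.02 and 9.12 in Ly6Clow MCs. The share of members above is thus little larger than that of all genes. The median difference of the members over the 8 libraries was 0.10, and it was -0.20 with equal linear sums and -0.17 after quantile normalization, under which 6 and 7 members were higher and 23 and 22 lower at an adjusted p under 0.05. Rpl36al, Rps27a and Rps27l kept a log2FC above 0 under every scaling tried.

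**Figure D2:**
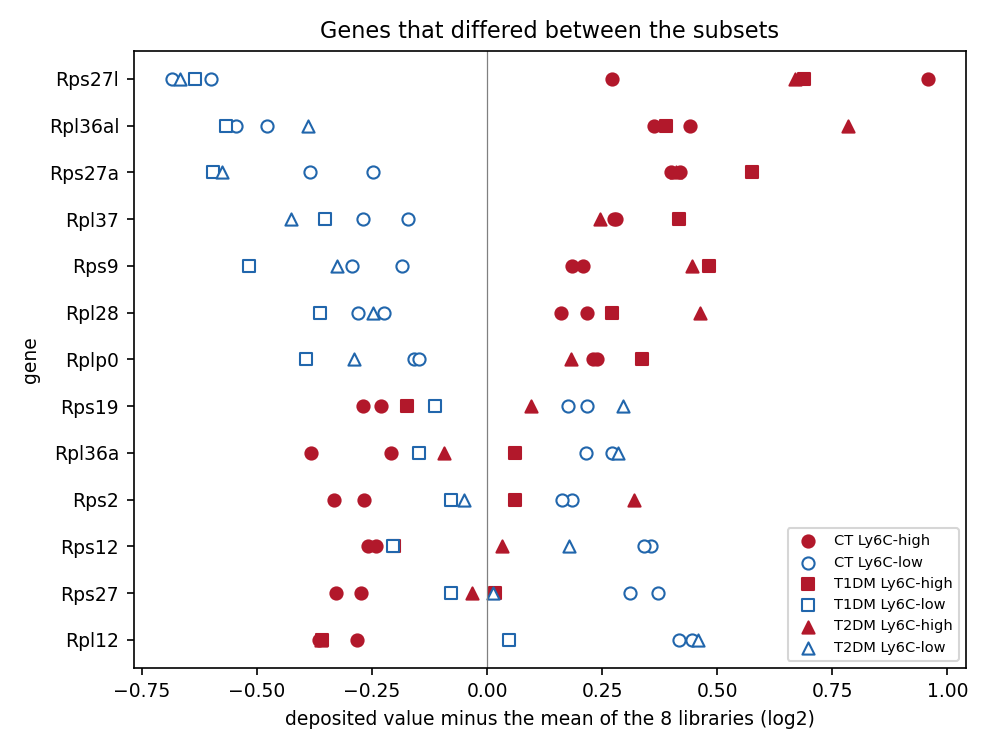
Each row is a gene named for the subset comparison, and each symbol is a library, plotted as its log2 value minus the mean of the 8 libraries, with Ly6Chigh filled and Ly6Clow open. The upper 7 genes have all filled symbols to the right of all open ones, and in Rpl12 all filled symbols are to the left.

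Start sites of some genes that differed between the subsets are shown as 30-base windows, because the TOP motif lies there. The windows come from the RefSeq annotation of GRCm38.p6, with 15 bases on each side of the annotated start. The genes were picked by hand. Rpl37 and Rpl28, which differed more than Rplp0, are not shown, and no window was at hand for Rps27a. The first run of letters searched was CTTTC, the second was CTTTTC and the third was CTTCC, on the coding strand. None contains another, and matches are in capitals. Rpl12 (chr2:32961697-32961726, plus strand), Rps27 (chr3:90213634-90213663, minus strand) and Rps12 (chr10:23787195-23787224, minus strand) were lower in CT Ly6Chigh MCs.
Rpl12: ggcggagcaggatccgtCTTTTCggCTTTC
Rps27: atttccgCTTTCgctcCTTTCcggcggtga
Rps12: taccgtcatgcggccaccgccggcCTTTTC

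Rps27l (chr9:66946071-66946100, plus strand), Rpl36al (chr12:69184053-69184082, minus strand), Rplp0 (chr5:115559452-115559481, plus strand) and Rps9 (chr7:3704026-3704055, plus strand) were higher in Ly6Chigh MCs over the 8 libraries.
Rps27l: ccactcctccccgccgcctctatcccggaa
Rpl36al: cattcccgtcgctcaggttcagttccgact
Rplp0: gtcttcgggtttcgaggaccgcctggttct
Rps9: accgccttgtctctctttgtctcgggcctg

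Of 65 members with an annotated start in the reference, 27 (41.5%) held such a run within these windows, against 14.8% of 11654 genes of the table. On the other strand 13 of 65 members and 1701 of 11654 genes held one. An annotated start can miss the true start by some bases, so a window without a match says only that these letters are not in it. The share with a match was not counted by the direction of the subset difference, so the windows shown do not link the motif to direction.

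As deposited, most members were higher in Ly6Chigh than in Ly6Clow MCs of diabetic mice, while most were lower in CT mice. In T1DM MCs, 84 of 90 members were higher in the Ly6Chigh than in the Ly6Clow library, and in T2DM MCs 76 were, where 47.2% and 47.7% of all genes were. The median difference was 0.42 in T1DM and 0.36 in T2DM MCs against -0.13 in CT MCs, while all genes had medians of -0.04, -0.03 and -0.09. Genes of a mean of at least 5 had medians of 0.17, 0.22 and 0.22. The medians had the same signs in both subunits, with -0.18 in CT MCs, 0.35 for T1DM and 0.34 for T2DM over 31 small subunit genes and of -0.10, 0.42 and 0.40 over the 48 genes of the large subunit, all with a mean of at least 5. The direction within a mouse group depended on the scaling. With equal linear sums the medians were -0.42 (CT), 0.15 (T1DM) and 0.00 (T2DM), with 61 members above 0 for T1DM and 45 for T2DM. With equal library medians they were -0.01, 0.52 and 0.47, and after quantile normalization -0.43, 0.16 and 0.07. The diabetic medians were above the CT median under each. The diabetic values rest on 1 library of each subset per model and have no replicate check.

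**Figure D3:**
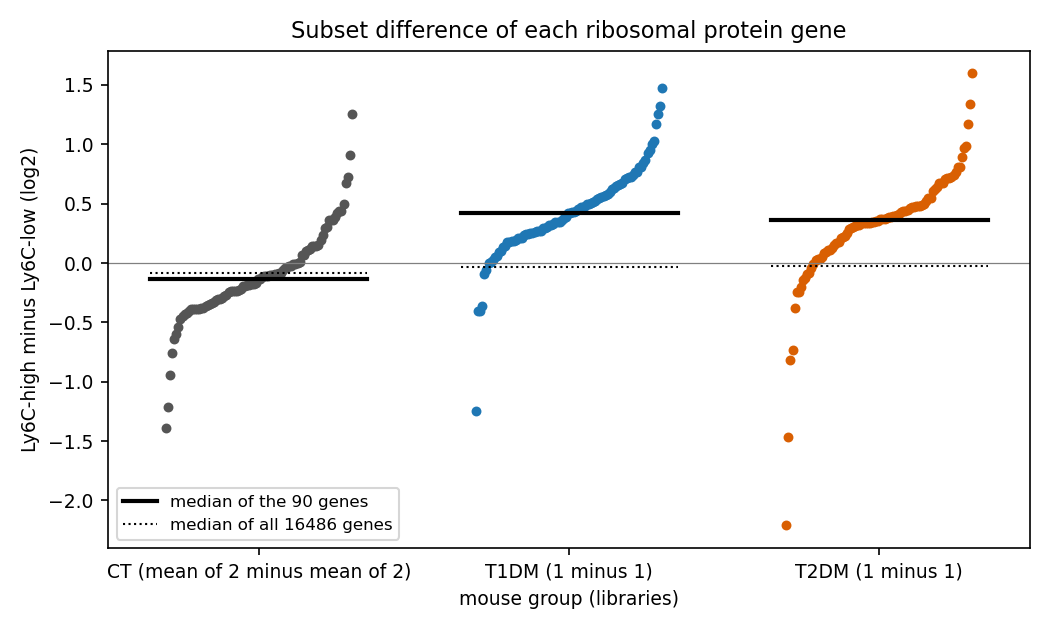
Each point is 1 of the 90 ribosomal protein genes, sorted within its mouse group by the log2 difference of Ly6Chigh minus Ly6Clow MCs, with the median of the 90 genes as a thick line and the median of all 16486 genes as a dotted line. The thick line lies at -0.13 for CT, 0.42 for T1DM and 0.36 for T2DM.

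The test of this difference between diabetic (both models) and CT MCs had a median of 0.47 over the members, against 0.02 over all genes, but called 0 of 90 by either criterion (0.0% of all genes by the fold criteria, and 0.0121% higher and 0.00607% lower at an adjusted p under 0.05). In this test the T1DM and T2DM libraries of a subset stood as replicates of a diabetic group, although they are different models. Its SEs and p-values rest on that. At an unadjusted p under 0.05, 50 members were higher and 0 lower, where 3.25% and 3.33% of all genes passed. The lowest adjusted p among the members was 0.373, for Rplp2. Under the alternatives run the median lay between 0.44 and 0.53. The 70 -ps pseudogenes had a median of 0.49, with 8 higher and 2 lower at an unadjusted p under 0.05.

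Rplp2 showed the change in full. It stood at 8.48 and 8.50 in CT Ly6Chigh and at 8.89 and 8.83 in CT Ly6Clow MCs, and at 8.98 in T1DM Ly6Chigh against 8.26 in T1DM Ly6Clow and 8.87 in T2DM Ly6Chigh against 8.47 in T2DM Ly6Clow MCs. The difference of the subset differences was 0.92 ± 0.16 SE (unadjusted p = 0.000612). For Rps28 it was 0.93 ± 0.18 SE (unadjusted p = 0.00101) and for Rps16 0.76 ± 0.15 SE (unadjusted p = 0.00102). Rps16 stood at 8.02 and 7.97 in CT Ly6Chigh, 8.18 and 8.16 in CT Ly6Clow, 8.37 and 7.82 in T1DM Ly6Chigh and Ly6Clow, and 8.45 and 7.83 in T2DM Ly6Chigh and Ly6Clow MCs. Rps26 (0.89), Rpl35 (0.86) and Rps21 (0.82) lay between Rps28 and Rps16 in this value. In both Rplp2 and Rps16 the order of the subsets in CT was the opposite of that in both diabetic models.

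Other members had values closer to 0. Rpl36al had a difference of subset differences of 0.15 ± 0.22 SE, Rps27l of 0.07 ± 0.38 SE, Rps7 of 0.02 ± 0.17 SE and Rplp0 of 0.21 ± 0.15 SE. The levels of Rps7 in Ly6Chigh MCs were 8.45 and 8.41 (CT), 8.33 (T1DM) and 8.45 (T2DM), and in Ly6Clow MCs 8.04, 8.10, 7.89 and 8.14. These genes were higher in Ly6Chigh MCs of all mouse groups. The difference was 0.09 for Rpl4, 0.72 for Rps3, 0.70 for Rpl10 and 0.24 for Rps4x.

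In 39 members both CT Ly6Chigh libraries lay below both CT Ly6Clow libraries while Ly6Chigh was above Ly6Clow in both diabetic models, a pattern that 3.32% of all genes had. The count was 28 with equal linear sums, 28 with equal library medians and 35 after quantile normalization, where 2.5%, 3.29% and 3.34% of all genes had the pattern. As deposited, the reverse pattern occurred in 0 members and 2.87% of all genes. Against both CT libraries of its subset, the T1DM Ly6Chigh library was higher in 81 members (36.3% of all genes) and the T1DM Ly6Clow library lower in 79 (34.9%). The T2DM Ly6Chigh library was higher in 73 (38.4%) and the T2DM Ly6Clow library lower in 67 (37.0%). These counts share the CT libraries. They are also tied to each other, as the diabetic minus the CT mean over both subsets had a median of 0.02 and an SD of 0.18 over the members, so that a member above CT in one subset tended to be below it in the other. Over all genes that median was 0.01 and the SD 0.27.

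Transcript length was set beside this difference, since members are short. Members with a mean of at least 5 had a median transcript length of 714 bases and a median difference of subset differences of 0.50, with 60.8% higher at an unadjusted p under 0.05. In 779 other genes of that level with a median transcript under 1000 bases the median was 0.02 and 3.9% were higher. B cell markers were lower in Ly6Chigh MCs of every mouse group, at a summed level of 812 against 7848 in T1DM and 401 against 8393 in T2DM MCs. Nonclassical monocyte markers summed to 2933 and 2963 (CT), 2184 (T1DM) and 1532 (T2DM) in Ly6Chigh MCs and to 3261 and 3269, 4207 and 3576 in Ly6Clow MCs, and 7 of 11 passed an unadjusted p under 0.05 with the sign opposite to the members. The part of cell composition in the difference was not tested.

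Between the diabetic models, 3 members were called and all were lower in T2DM MCs (0.388% of all genes lower and 0.2% higher). This fit, like those of each model against CT, assumed the same difference in both subsets. The Ly6Chigh and Ly6Clow libraries of a model came from the same mice and entered it together, so they are not independent replicates of the model. Rps18, in the head of the small subunit, stood at 8.61 and 8.09 in T1DM Ly6Chigh and Ly6Clow MCs and at 5.69 and 5.35 in T2DM MCs, with CT libraries at 7.48, 7.52, 7.90 and 7.87 (log2FC T2DM minus T1DM -2.83 ± 0.23 SE, adjusted p = 0.000597). Rpsa, the small subunit protein also known as the laminin receptor, stood at 9.70 and 9.40 in T1DM and 7.63 and 7.88 in T2DM MCs, with CT libraries at 8.92, 8.91, 9.33 and 9.27 (log2FC -1.80 ± 0.16 SE, adjusted p = 0.00115). Rpl3, near the peptidyl transferase centre of the large subunit, stood at 9.18 and 8.98 in T1DM and 7.81 and 7.60 in T2DM MCs, with CT libraries at 8.64, 8.65, 8.95 and 8.94 (log2FC -1.37 ± 0.15 SE, adjusted p = 0.00308).

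Both T2DM libraries were below all 6 others in these 3 genes, in Rps15a and in Rpl15, which is 5 of 90 members where 3.5% of all genes did so. Rps15a, at 8.62 and 8.10 in T1DM and 7.55 and 7.21 in T2DM MCs, passed at an adjusted p under 0.05 (log2FC -0.98 ± 0.17 SE, adjusted p = 0.0228), where 1.24% of all genes were lower and 0.752% higher. In 3 members, among them Rpl4 and Rps4x, both T2DM libraries were above all others (2.8% of all genes), and none of the 3 passed. The median difference of the members was 0.11 against 0.00 over all genes.

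The same 3 genes were lower in T2DM than in CT MCs (0.164% of all genes lower and 0.133% higher), a comparison that shares its T2DM libraries with the one above. At an adjusted p under 0.05 there were 3 members too, all lower (0.364% of all genes higher and 0.437% lower). Rps18 had a log2FC of -2.17 ± 0.20 SE (adjusted p = 0.00201), Rpsa of -1.35 ± 0.14 SE (adjusted p = 0.00394) and Rpl3 of -1.09 ± 0.13 SE (adjusted p = 0.00744). Without CT Ly6Chigh replicate 1, CT Ly6Chigh replicate 2 or CT Ly6Clow replicate 1 Rps18 alone was called, and without CT Ly6Clow replicate 2 no member was. Fitted on the 4 diabetic libraries alone, T2DM against T1DM called 0 members.

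Some near-identical copies of the same genes rose where the parents fell. How reads were divided between parent and copy was not tested, so the falls of Rps18, Rpsa and Rpl3 are falls of the deposited values only. Gm10260, a copy of Rps18, stood at 2.89, 2.46, 3.31 and 2.81 in the CT libraries and at 0.97 and 0.63 in T1DM, and rose to 7.78 and 7.16 in T2DM Ly6Chigh and Ly6Clow MCs (log2FC T2DM minus T1DM 6.67 ± 0.36 SE, adjusted p = 8.44e-05). Gm11361 stood at 1.45 and 0.96 in T1DM and 6.06 and 5.52 in T2DM MCs, and Rps18-ps3 at -2.37 in both T1DM and at 4.54 and 3.71 in the T2DM libraries. Rpl3-ps1 stood at 1.97 in all 4 CT libraries, 2.03 and 0.80 in T1DM and 7.31 and 7.09 in T2DM MCs (log2FC 5.78 ± 0.36 SE, adjusted p = 0.000151). Rpsa-ps10, also at 1.97 in all 4 CT libraries, stood at 0.44 and 0.90 in T1DM and 6.94 and 7.20 in T2DM MCs (log2FC 6.40 ± 0.29 SE, adjusted p = 3.82e-05). The equal CT values of Rpl3-ps1 and Rpsa-ps10 may not be measured levels, and they hold no spread between the CT libraries in these fits. Nor may the equal values of Rps18-ps3, at -2.73 in both CT Ly6Chigh libraries and -2.37 in both T1DM libraries, be measured levels. In CT Ly6Clow MCs Rps18-ps3 stood at 1.12 and 1.47. For each of these copies both T2DM libraries were the highest of the 8, and for each parent they were the lowest.

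**Figure D4:**
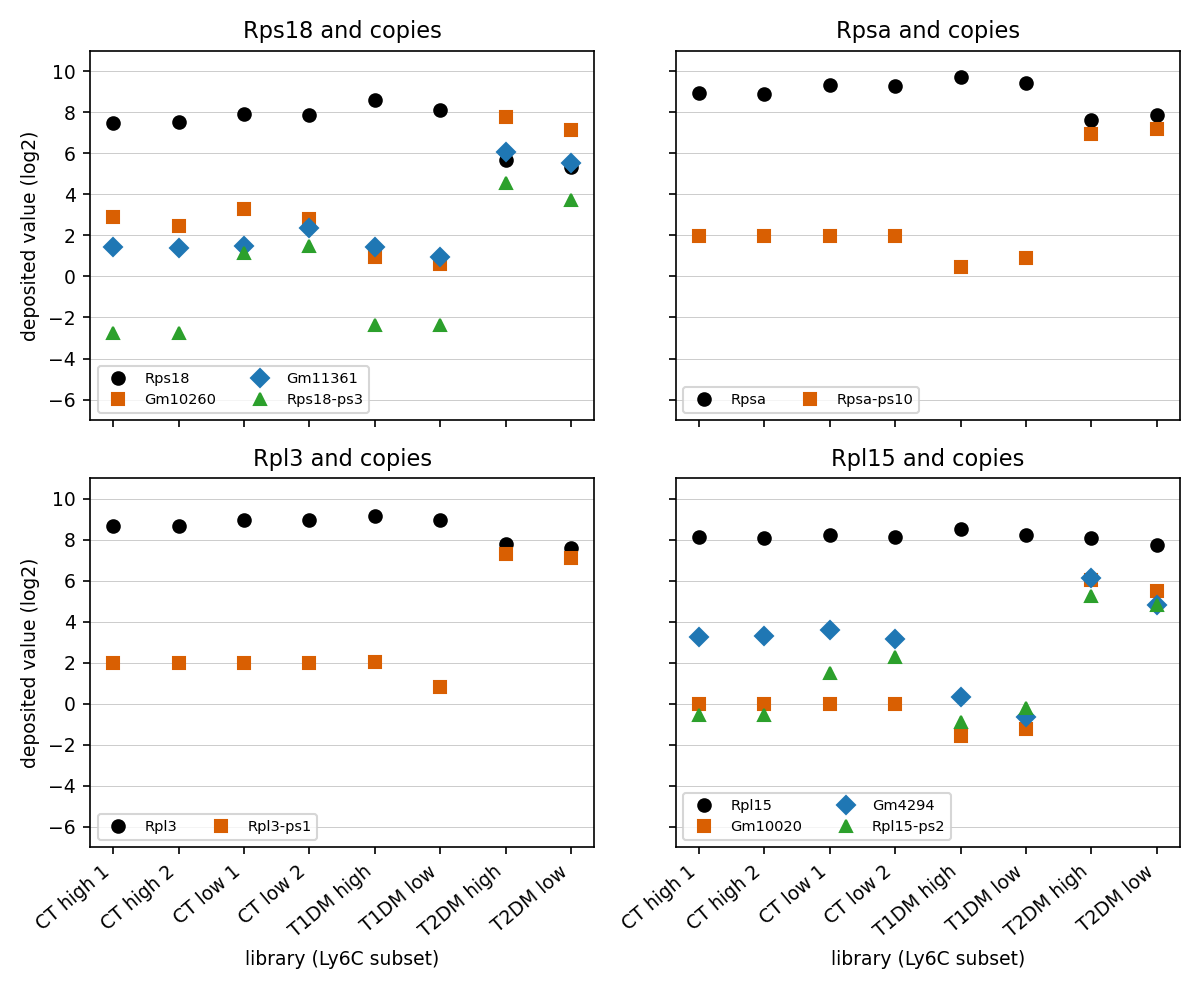
Deposited log2 values of Rps18, Rpsa, Rpl3 and Rpl15 (black circles) and of selected near-identical copies (coloured symbols) in the 8 libraries. In both T2DM libraries the copies shown have their highest values of the 8 libraries and the parent gene has its lowest.

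Each member was then replaced by the log2 of the linear sum of itself and all genes of the table that hold at least 5% of its 31-base sequences, an alternative added after the values were seen. Summed with 4 copies, Rps18 stood at 8.63 and 8.11 in T1DM and 8.50 and 7.93 in T2DM MCs, a log2FC of -0.15 ± 0.25 SE (adjusted p = 0.851) in place of -2.83. Rpl3 moved from -1.37 to -0.61 (adjusted p = 0.0992) and Rpsa from -1.80 to -1.10 (adjusted p = 0.0137). Rps15a kept -0.96 with its 5 copies, and Rpl15 moved from -0.46 to 0.04. By the fold criteria 0 members were then called for T2DM against T1DM and 0 against CT. At an adjusted p under 0.05, Rpsa and Rps15a were lower in T2DM than in T1DM MCs, and Rpl21 was higher, as it moved from -0.16 to 0.64 (adjusted p = 0.0422). The median difference of subset differences between diabetic and CT MCs was 0.50 with the copies summed, against 0.47 for the members alone.

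**Figure D5:**
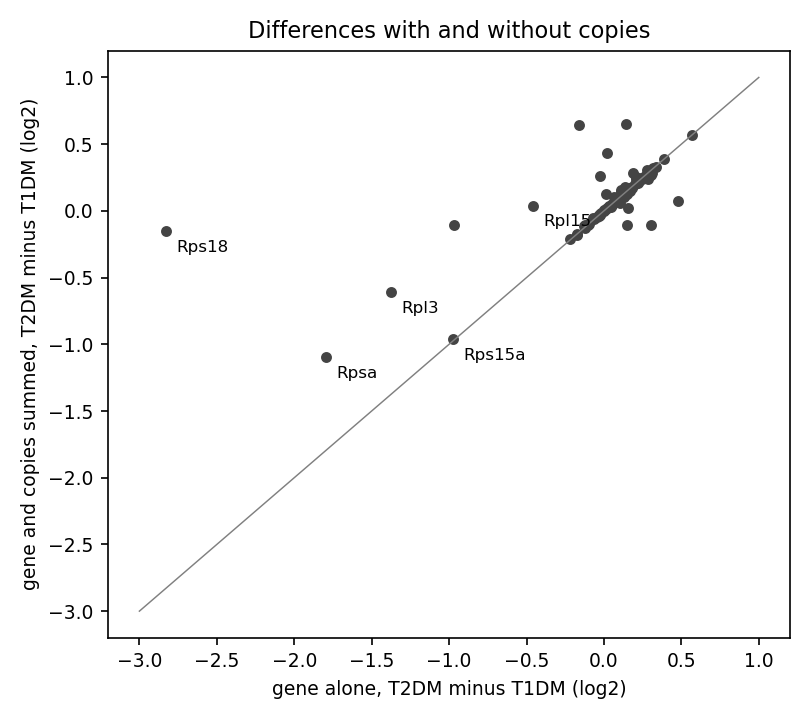
Each point is a member, with its log2 difference of T2DM minus T1DM (mean of both subsets) alone on the horizontal axis and summed with its copies on the vertical axis, and the line marks equal values. Rps18 moves from -2.83 to -0.15, Rpsa from -1.80 to -1.10 and Rpl3 from -1.37 to -0.61, while Rps15a stays on the line.

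In the same comparison 6 of the 70 -ps pseudogenes were called, where 0.2% of all genes were called higher and 0.388% lower, and all 6 were higher in T2DM MCs. Besides Rpl3-ps1 and Rpsa-ps10 these were Rpl14-ps1 (6.70 ± 0.91 SE), Rpl15-ps2 (5.59 ± 0.72 SE), Rpl34-ps1 (4.95 ± 0.48 SE) and Rps2-ps10 (4.01 ± 0.25 SE). Rpl34-ps1 stood at -0.87 in all 4 CT libraries and Rpl15-ps2 at -0.53 in both CT Ly6Chigh libraries. Such equal values may not be measured levels, and they hold no spread between those replicates. The parents Rpl14, Rpl34 and Rps2 did not pass. The largest ranges over the 8 libraries were those of Rpl14-ps1 (7.43), Rps18-ps3 (7.27), Rpsa-ps10 (6.76), Rpl17-ps10 (6.62) and Rpl3-ps1 (6.51). Rpl17-ps10 had its lowest value, -3.30, in T1DM Ly6Chigh MCs alone. Markers of erythroid cells and platelets moved with the models, as 5 of 7 and 5 of 9 were lower in T2DM than in T1DM MCs at an adjusted p under 0.05, where 1.24% of all genes were. Erythroid markers summed to 38055 and 31477 in T1DM and 16631 and 16544 in T2DM MCs. The CT libraries lay between the models, at 20719 and 20486 in Ly6Chigh and 24193 and 24231 in Ly6Clow MCs. The part of these cells in the differences was not tested.

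T1DM against CT MCs called 0 members by either criterion (0.0% of all genes by the fold criteria, and 0.0121% higher and 0.00607% lower at an adjusted p under 0.05). Whether the deposited values were adjusted between the CT and diabetic sets is not given. The 0 calls therefore do not show that the members were unchanged in T1DM MCs. At an unadjusted p under 0.05, 3 members were higher and 1 lower (2.03% and 1.32% of all genes). The lowest adjusted p was 0.655, for Rps27rt, which stood at 3.33 in all 4 CT libraries and at 4.00 to 4.41 in the diabetic libraries. The median difference of the members over both subsets was -0.02. It was 0.25 in Ly6Chigh MCs and -0.28 in Ly6Clow MCs, and for T2DM against CT MCs it was 0.29 and -0.17.

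Genes that work with the ribosome were counted by list, at an adjusted p under 0.05 over the 8 libraries, where 17.0% of all genes were higher and 16.0% lower in Ly6Chigh MCs. Of 15 translation elongation factors and other TOP genes, 9 were higher and 1 lower in Ly6Chigh MCs over the 8 libraries at an adjusted p under 0.05. Eif3e (0.68) and Eif3h (0.56), subunits of the initiation complex eIF3, and Naca (0.68), which binds nascent chains on the ribosome, rose most, and Eef1g, a subunit of elongation factor 1, fell (-0.77). Their median subset difference was 0.21 for CT, 0.52 for T1DM and 0.50 for T2DM MCs. Fau (0.75) and Rack1 (0.34), which encode ribosomal proteins but fall outside the symbol rule, were also higher in Ly6Chigh MCs over the 8 libraries.

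Of 32 initiation factors, 13 were higher and 1 lower. Of 79 mitochondrial ribosomal protein genes 0 were lower and 15 higher, near the share of all genes, among them Mrpl33 (1.32) and Mrpl58 (1.19). Of 48 ribosome biogenesis genes, 5 were higher and 10 lower, beside 17.0% and 16.0% of all genes, and no test of the list was run. The 5 higher genes are not named here. Nop58 (-1.33), a core protein of the particles that methylate ribosomal RNA, Mdn1 (-1.27), an ATPase of large subunit assembly, Gnl3 (-1.16) and Polr1a (-1.14), the largest subunit of RNA polymerase I, fell past the fold criteria. By these criteria 6.76% of all genes were called lower and 5.37% higher. Myc, a transcription factor that drives ribosome production, stood at 2.76, 3.13, 2.49 and 3.24 in Ly6Chigh and at 6.40, 6.48, 6.69 and 6.59 in Ly6Clow MCs (log2FC -3.64 ± 0.18 SE, adjusted p = 2.83e-06). Eif4ebp1, an inhibitor of translation under mTOR control, rose by 1.09. Myc and Eif4ebp1 are examples from a list of regulators of ribosome production. The other genes of that list are not reported here, so these examples show no direction for it. In the test of the subset difference between diabetic and CT MCs 0 genes of these lists passed an adjusted p under 0.05.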

How the data were processed

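The measurements are RNA-Seq of 8 libraries of sorted mouse MCs. Transcript abundance was estimated by the authors with Kallisto 0.45, gene-level values were obtained through tximport 1.12.3 under R 3.6.1, and log2 expression of 16486 genes was deposited. Per the labels the genome build is mm10. The normalization between libraries is not given in the sources used here. Since the deposited log2 values are not counts, depth is unknown and no counting error is given. The study describes duplicate libraries for every group, and the second diabetic libraries were not analysed here.

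Log2FC were computed here from the deposited values without a pseudocount. Linear models were fitted in limma 3.58.1 under R 4.3.3, moderated by eBayes with a variance trend, with mouse group or subset as covariate where both entered, and an interaction term for the subset difference between diabetic and CT MCs. p-values were adjusted over all 16486 genes by the Benjamini-Hochberg method. Comparisons with 1 library on a side in a single subset were given as differences without a test. The model fits were tested on simulated data. Whether replicate numbers in the labels pair the CT libraries is not known. For libraries of the same number, deviations from the group means had a correlation of 0.01 over all genes. With so few replicates this cannot settle the pairing.

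Shared 31-base sequences were counted in GENCODE M21 transcripts (GRCm38, the assembly also called mm10). Coding sequences and positions come from the same release, and start windows from RefSeq. Members, lists and alternatives were chosen with earlier results of these data known. Genes named are the members called where at most 10 were called, otherwise the 5 largest rises and falls at a mean log2 value of at least 5, members of the highest mean, the P-stalk, the paralogues, the 5 most variable pseudogenes and called genes of the other lists. Rps3, Rps7, Rps16, Rps28, Rpl7a, Rpl35a, Rpl15, Rps27rt, Rps16-ps2, Rpl10a-ps1 and the Gm copies were chosen after their values were seen, and Fau, Rack1 and the factors without a fold call were named from their lists. Some genes that this rule names are not reported here. Python 3.11.15, pandas 2.3.3 and matplotlib 3.10.9 served for tables and plots.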

Additional observations from a re-analysis of the deposited data

Results flagged for a closer look

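In 39 members both CT Ly6Chigh libraries lay below both CT Ly6Clow libraries while the Ly6Chigh library was above the Ly6Clow library in T1DM and in T2DM MCs, as deposited, so that the CT libraries went one way and those of both diabetic models the other. With equal linear sums or equal library medians 28 members had this pattern, and 35 after quantile normalization, alternatives added after seeing the data. The difference was not shown for any single member by the adjusted test, and the count itself was not tested.

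For a pair of pseudogenes Ly6Chigh minus Ly6Clow was below 0 in CT MCs and higher in diabetic MCs by the test of the difference itself. Rpl10a-ps1 stood at 4.21 and 4.54 in CT Ly6Chigh and 8.53 and 8.05 in CT Ly6Clow MCs, at 6.71 and 6.89 in T1DM and at 7.41 and 6.92 in T2DM Ly6Chigh and Ly6Clow MCs (difference 4.08 ± 0.37 SE, adjusted p = 0.0404). Rps16-ps2 stood at 3.56 in both CT Ly6Chigh libraries, 6.35 and 5.83 in CT Ly6Clow, 5.76 and 5.15 in T1DM and 5.72 and 5.06 in T2DM MCs (difference 3.17 ± 0.29 SE, adjusted p = 0.0404). The equal CT Ly6Chigh values of Rps16-ps2 may not be measured levels, and they hold no spread between those replicates. The coding sequences of Rpl10a-ps1 and Rps16-ps2 differ from those of Rpl10a and Rps16 at 2 and 0 bases. Of the 31-base sequences of each pseudogene, 100% also occur in other genes, and how reads were divided was not tested. The instrument differed between CT and diabetic libraries as well.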

How the results depend on the processing

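Of the counts by the fold criteria, that for CT MCs went from 0 to 1 with equal linear sums (Rpl12, lower), median centring (Rpl36al, higher) and quantile normalization (Rpl12, lower). The count over 8 libraries went from 1 to 0 with equal linear sums, 3 with median centring, 2 without the T1DM libraries and 1 to 2 without single CT libraries. That for T2DM against T1DM went from 3 to 0 with copies summed, without the variance trend and on the diabetic libraries alone, and that for T2DM against CT to 0 with copies summed and without the trend and to 0 to 1 without single CT libraries. At an adjusted p under 0.05 the counts were 36 (CT), 22 (8 libraries) and 4 (T2DM against T1DM), and without the variance trend 3, 11 and 2.

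The median member difference in CT MCs was -0.42 with equal linear sums, -0.006 with median centring, -0.43 with quantile normalization and -0.17 to -0.12 without single CT libraries. Over 8 libraries it was -0.20, 0.21 and -0.17 under these scalings, 0.028 without the T1DM and 0.027 without the T2DM libraries, and 0.14 to 0.15 without single CT libraries. For T2DM against T1DM it was 0.037 in Ly6Chigh MCs alone. For T1DM against CT it was -0.077 with equal sums, -0.079 with quantile normalization, 0.25 in Ly6Chigh and -0.28 in Ly6Clow MCs alone and -0.076 to 0.029 without single CT libraries. For T2DM against CT it was 0.082 with copies summed, 0.001 with equal sums, -0.001 with quantile normalization, 0.29 and -0.17 in each subset alone and 0.004 to 0.115 without single CT libraries. For diabetic against CT subset differences it was 0.50 (copies summed), 0.44 (equal sums), 0.45 (median centring), 0.50 (quantile), 0.45 (without T1DM) and 0.53 (without T2DM), and 0.48 to 0.49 without single CT libraries. The mean share of the linear sum was 3.01% and became 2.97% without paralogue-type members, 3.11% with ribosomal protein genes outside the symbol rule and 3.16% with the pseudogenes. Rps18 in T2DM against CT turned from -2.17 to 0.44 with copies summed.

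With the replicate number as a block, members at an adjusted p under 0.05 in CT MCs went from 36 to 12 and over 8 libraries from 22 to 16, and by the fold criteria the counts stayed at 0 and 1. Whether the numbers pair the libraries is not known. Single genes kept their side of an adjusted p of 0.05 in 479 of their alternatives, lost it in 128 and gained it in 3. Read depth is unknown, and values of low genes that are equal in several libraries of a set limit any difference against them.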
